A study of Mus musculus with 32 samples.

Results

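Heat-shock proteins and their partners hold other proteins in a folded, working state, and their genes were followed here in the liver and small intestine of mice without ketohexokinase. The set was taken by name from the protein-coding genes of the deposited tables: symbols that begin with Hsp and a family letter or digit, J-proteins of the Dnaja, Dnajb and Dnajc families, Cct2 to Cct8, the numbered Pdia genes, and Bag1 to Bag6. It held 47 genes of the 10055 genes, 8156 of them protein-coding, that stood in at least 1 of the 4 organ tables. Ketohexokinase, encoded by Khk, phosphorylates fructose as its breakdown begins, and the series asked how fructose and this enzyme bear on iron homeostasis. Male mice that lack Khk (Khk KO) were compared with wild-type (WT) males, with 4 libraries for each genotype in liver, duodenum, jejunum and ileum, 32 in all. The labels give no age, strain, diet, treatment or knockout construct for either genotype, and they do not say whether libraries with the same number came from the same mouse or whether each library is a separate animal. The p-values therefore measure the spread between libraries, some of which may be technical.

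The deposited tables stop at an unadjusted p of 0.05 in the authors' own test, so a gene of the set that is missing from a table has no value there. GENCODE M21, whose positions equalled those in the tables for 45 of the 47 genes, annotates 93 protein-coding genes with such names, and 46 of these stood in no table, among them Hspa5, Hsp90aa1, Hspa1a, Hspd1 and Pdia4. Liver listed 30 genes of the set, ileum 21, jejunum 15 and duodenum 11, which makes 77 entries. A single organ listed 25 of the 47 genes, 2 organs listed 16, 3 organs listed 4, and all 4 organs listed 2. By the known place of their proteins, 23 of the 47 act in the cytosol (42 genes annotated), 7 in the lumen of the endoplasmic reticulum (ER; 13 annotated), 1 in the ER membrane (5 annotated) and 4 in mitochondria (9 annotated), while 8 were listed under other places and 4 were not placed.

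As a lower bound of the depth, the listed genes of the ileum libraries held between 6531593 and 9149003 reads, those of jejunum between 3053896 and 4325568, those of duodenum between 1722220 and 3549978, and those of liver between 7505439 and 14331517. Khk was lower in each Khk KO library than in each WT library of the same organ: 743 to 1000.3 against 5784 to 11769 normalised counts in liver, 611 to 736 against 9414 to 24008 in duodenum, 541 to 837 against 5580 to 13852 in jejunum, and 83.8 to 122 against 1174 to 2617 in ileum. A normalised count is the read count divided by the authors' size factor for the library. The liver table held 8 of 12 hepatocyte markers, with a summed level of 444982 to 646732 normalised counts in WT, and 3 of 12 enterocyte markers, with 71982 to 145059. The intestinal tables held 1, 4 and 5 of 12 enterocyte markers in duodenum, jejunum and ileum. They also held 1, 4 and 7 hepatocyte markers, summing in WT duodenum to 167385 to 482625, so some listed markers are expressed in both organs. No listed marker was at 0 throughout. Tissue was sequenced in bulk, so fewer cells of a type and less RNA per cell cannot be told apart in any value below.

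Chaperones work in relays. In the cytosol, J-proteins hand unfolded chains to Hsp70 and stimulate its ATPase, nucleotide exchange factors such as the BAG proteins, Hspbp1 and the Hsp110 proteins release them, and Hsp90 and the ring-shaped chaperonin TRiC, built from the Cct subunits, finish particular clients, while small heat-shock proteins hold chains until they can be refolded. In the ER lumen, Hsp70 and Hsp90 relatives act on secreted and membrane proteins together with the protein disulfide isomerases of the Pdia family. Both compartments have a stress programme of their own: heat-shock factor 1 (HSF1) raises cytosolic chaperones through the heat shock element, and the unfolded protein response raises ER chaperones through the ER stress element. Liver makes much of the plasma protein and the small intestine carries secretory cells, so both rely on the ER machinery.

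The promoters of the set were searched for both elements, and the matches followed this division only in part. The 250 bases before the annotated start were searched in the RefSeq promoter table (GRCm38.p6), which held 42 of the 47 genes, for the core of the heat shock element, GAANNTTC or TTCNNGAA, both of which read the same on either strand. The 2 forms can overlap in a row, as they do at Hspe1. It was present in 26.2% of the 42 genes, in 8 of 21 cytosolic genes, in 1 of 6 ER lumen genes (Dnajc10) and in 14.5% of all 27025 genes in the table. The ER stress element, CCAAT and CCACG with 9 bases of any kind between them on either strand, was present in 3 of the 6 ER lumen genes (Hsp90b1, Pdia6 and Dnajc3), in none of the 21 cytosolic genes and in 0.13% of all genes. Bag3 and Dnajb1, named below as HSF1 targets, had no heat shock element in the window, and neither had Hspb8. These matches describe letters in a window and no binding. Only genes with a match are printed. The fragments below, read 5′ to 3′ on the gene's strand with the element in capitals, are from the genes whose values are given most fully. Hsph1 and Hspa1b are the heat-inducible genes with the widest spread among Khk KO libraries, Hspe1 and Hspb1 had the lowest adjusted p in liver, and Hsp90b1 and Pdia6 are the ER genes.
Hsph1, chr5:149636362-149636389, minus strand: cagtccattgggtagaatctTTCTCGAA
Hspa1b, chr17:34959315-34959362, minus strand: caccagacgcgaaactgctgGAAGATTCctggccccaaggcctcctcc
Hspe1, chr1:55088039-55088096, plus strand: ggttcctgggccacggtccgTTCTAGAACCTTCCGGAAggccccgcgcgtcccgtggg
Hspb1, chr5:135887782-135887849, plus strand: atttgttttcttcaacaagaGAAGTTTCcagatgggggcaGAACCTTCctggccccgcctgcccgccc
Pdia6, chr12:17266471-17266529, plus strand: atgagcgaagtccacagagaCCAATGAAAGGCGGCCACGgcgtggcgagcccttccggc
Hsp90b1, chr10:86705513-86705676, minus strand: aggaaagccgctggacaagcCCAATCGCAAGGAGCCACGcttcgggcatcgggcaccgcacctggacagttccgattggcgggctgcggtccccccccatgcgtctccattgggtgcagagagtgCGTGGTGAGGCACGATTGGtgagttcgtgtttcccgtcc
Hspe1 held 3 overlapping heat shock elements, where 44 of the 27025 genes held 3 or more anywhere in the window, and Hsp90b1 carried the ER stress element once on each strand. Hsph1 had 2 windows. In the fragment printed for it, 15 bases, the element among them, lie inside the gene as placed in the deposited tables.

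In liver, most of the listed chaperone genes were lower in Khk KO: 12 of 16 in the cytosol, 3 of 3 in mitochondria and 2 of 3 in the ER lumen. With the adjusted p of the authors' deposited table and a threshold of 0.05, 23 of the 30 listed genes were called, 6 higher and 17 lower. That is 24.7% of the 93 annotated genes, beside 23.9% of all genes the authors had adjusted over (12.5% higher and 11.4% lower). These bases are unlike, since the 93 can include genes that the authors did not adjust over, which would lower the share of the set. Among genes listed for liver, 76.7% of the set were called, beside 70.9% of protein-coding genes and 68.5% of all genes. On that base the share called was near the background. The direction of the set's calls was less even than that of the table, without a test of the difference: 73.9% of the called genes of the set were lower, and 50.9% of all called protein-coding genes. The 2 groups of 4 libraries did not overlap for 21 of the 30 listed genes (70%), beside 65.0% of all listed genes, and for 19 of the 23 called ones (82.6%), beside 79.7% of all called genes. Complete separation of 4 against 4 libraries always gives the smallest p of a two-sided exact permutation test, 0.0286, so that test adds nothing here. When the counts were refitted with edgeR (quasi-likelihood test, Benjamini-Hochberg over the same 18225 genes), the test called 15 of the set, 4 higher and 11 lower, beside 14.7% of all genes. That count changed with single libraries, as did the count over all genes, which was 2675. Without WT replicates 1, 2, 3 and 4 the set's count was 26, 7, 13 and 0, beside 4860, 533, 2169 and 14 over all genes. Without Khk KO replicates 1, 2, 3 and 4 it was 1, 0, 5 and 1, beside 47, 9, 689 and 114. The sizes moved less. The median refitted log2 fold change of the cytosolic genes, -0.52 in the full fit, stayed between -0.46 and -0.60 with any 1 library left out. Over all genes, 4529 had an unadjusted p under 0.05 in edgeR's test without WT replicate 4, beside 5328 in the full fit.

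**Figure D1:**
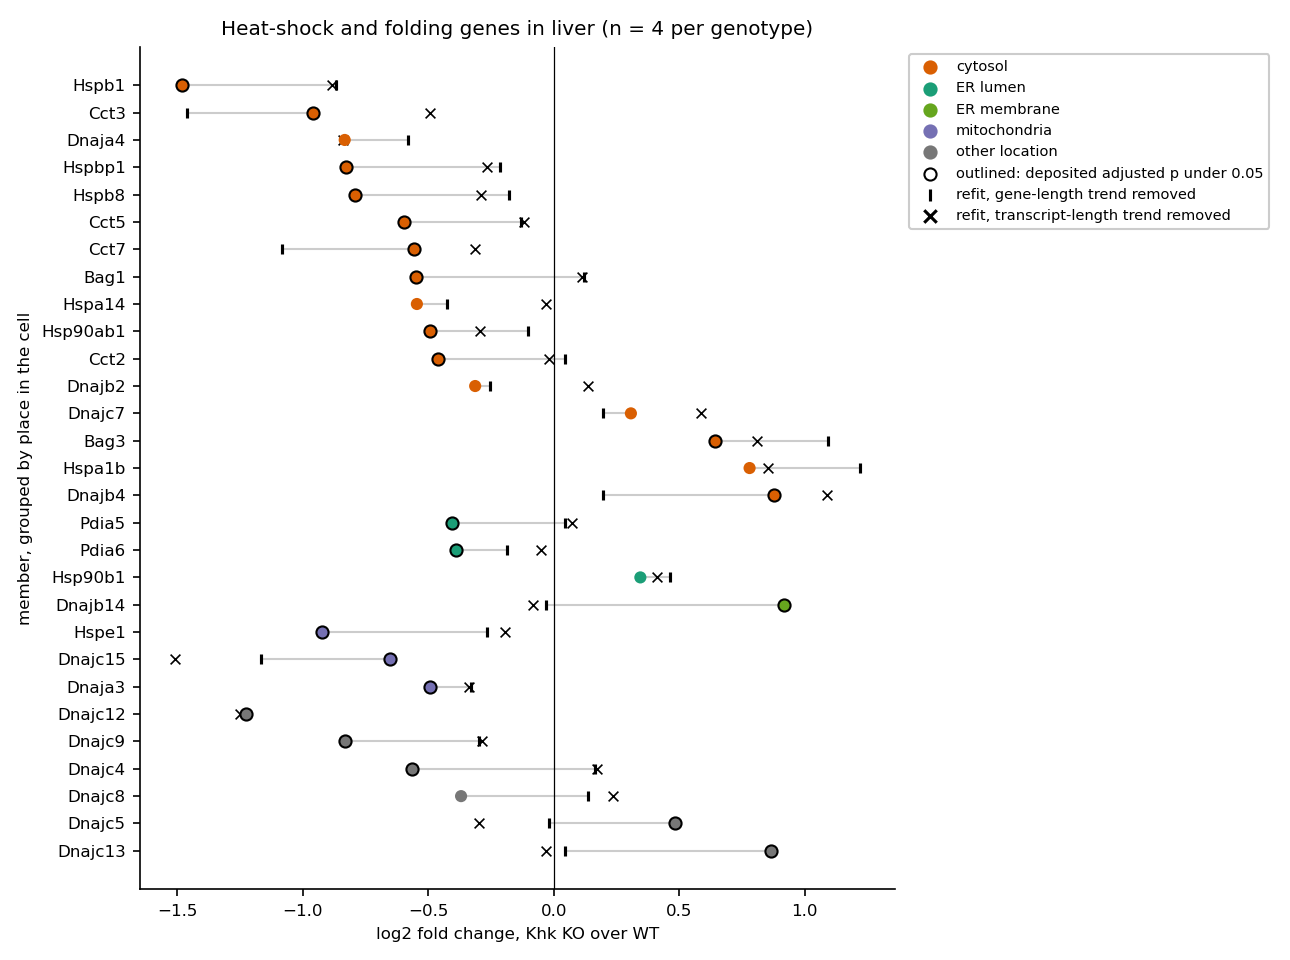
Liver log2 fold change, Khk KO relative to WT, for 29 of the 30 genes of the set in the table (x axis), with genes on the y axis grouped by place in the cell; Dnajb3, at 3.50, lies off the scale and is left out. Coloured points are the deposited values (outlined where the deposited adjusted p is under 0.05), bars and crosses the edgeR refit with the trend on gene length or on transcript length removed; most cytosolic points lie left of 0 and most marks lie nearer to 0 than their point, with Cct3, Cct7 and Dnajc15 moving left under gene length.

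The chaperonin TRiC folds actin, tubulin and other large clients in its cavity. The 4 protein-coding Cct genes in the liver table, Cct2, Cct3, Cct5 and Cct7, were called lower, where 68.5% of all genes listed for liver were called. Cct4, Cct6b and Cct8 stood in no table and have no value. Cct7 (ENSMUSG00000030007, chromosome 6, 85451514 to 85468475, plus strand) read 1187, 1074, 1165 and 1226 normalised counts in Khk KO replicates 1 to 4 and 1664, 1545, 1952 and 1672 in WT replicates 1 to 4. Every Khk KO library was below every WT library. By edgeR's refit the log2 fold change of Cct7 was -0.53 ± 0.12 (SE) at an adjusted p of 0.0232, and the adjusted p in the authors' deposited table was 5.12e-04. Cct3 read 1039, 1093, 1165 and 1048 in Khk KO and 1418, 1817, 3334 and 1860 in WT, where replicate 3 stood far above the others. Its refitted log2 fold change was -0.92 ± 0.22 (SE), with an adjusted p of 0.0256. The deposited log2 fold changes of Cct5 and Cct2, -0.60 and -0.46 in the authors' deposited table, lay in the same range, and Cct5 was again highest in WT replicate 3, at 3241 against 2309 to 2402 in the other WT libraries. Cct6a, a further subunit in the liver table, is filed there as a processed transcript and so left out of the protein-coding set. It was 1554 ± 74.0 in Khk KO and 2015 ± 211 in WT (SD, n = 4).

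Hsp90ab1, the constitutive cytosolic Hsp90 (ENSMUSG00000023944, chromosome 17, 45567775 to 45573271, minus strand), was the most abundant gene of the set in the liver table, at 551 ± 55.3 FPKM in WT and 387 ± 24.1 in Khk KO (SD, n = 4). FPKM is a level per kilobase of gene, scaled to the reads of the library. The libraries read 13931, 12637, 14579 and 13608 normalised counts in Khk KO and 21951, 17300, 19866 and 17851 in WT, with no overlap. The refitted log2 fold change was -0.47 ± 0.11 (SE) and its adjusted p 0.0243. Next in level were Hspb8 at 175 ± 42.8 FPKM in WT, Hspe1 at 145 ± 22.4, Hsp90b1 at 138 ± 20.2 and Bag1 at 122 ± 17.2 (SD, n = 4). Hspb8 and Hspe1 differ in level by less than their spread, as do Hspe1 and Hsp90b1, and Hsp90b1 and Bag1.

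The largest fall among the called genes of the set in liver was that of a small heat-shock protein. Hspb1, known as Hsp25 in mice (ENSMUSG00000004951, chromosome 5, 135887919 to 135889563, plus strand), read 357, 425, 427 and 494 normalised counts in Khk KO and 2035, 833, 854 and 1034 in WT. Khk KO held 35.8% of the WT mean, and WT replicate 1 stood far above the other WT libraries. The refitted log2 fold change was -1.46 ± 0.28 (SE), at an adjusted p of 0.0187 by edgeR. Hspb8, which works with Bag3 in clearing misfolded proteins, averaged 2286 ± 180 in Khk KO and 3952 ± 918 in WT (SD, n = 4), a refitted log2 fold change of -0.76 ± 0.15 (SE) with an adjusted p of 0.0196.

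The exchange factors of Hsp70 moved in both directions. Bag1, at 1304 ± 109 in Khk KO and 1906 ± 252 in WT (SD, n = 4), and Hspbp1, at 243 ± 24.0 and 431 ± 70.5, were called lower. Bag3, whose own gene is a classical HSF1 target, read 551, 561, 883 and 751 in Khk KO and 549, 337, 297 and 576 in WT. The groups overlapped. The adjusted p was 0.0429 in the authors' deposited table, at 0.64 on the log2 scale, and 0.102 in edgeR's quasi-likelihood test. Of the Hsp70 proteins, Hspa1b, the stress-inducible form, read 109, 175, 217 and 347 in Khk KO and 105, 75.7, 130 and 182 in WT, with an adjusted p of 0.0855 in the authors' deposited table. Hspa1b has a near-identical neighbouring copy, Hspa1a, and reads of the pair could be split between them in counting, so its values are uncertain. Hspa14, a ribosome-associated relative, had an adjusted p of 0.0693, at -0.54 on the log2 scale, in the authors' deposited table.

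Of the 4 cytosolic J-proteins listed for liver, 1 was called. Dnajb4 (ENSMUSG00000028035, chromosome 3, 152178511 to 152210302, minus strand) read 636, 724, 944 and 850 in Khk KO and 589, 280, 405 and 442 in WT. All Khk KO libraries were above all WT libraries, with WT replicate 1 the nearest to them. The refitted log2 fold change was 0.90 ± 0.23 (SE), with an adjusted p of 0.0281. Dnaja4 stood at -0.83 on the log2 scale, adjusted p 0.0548, in the authors' deposited table. It shares 44.1% of its exon bases with Wdr61 on the opposite strand, and because the labels leave the strandedness of the libraries unknown, reads of the 2 genes cannot be told apart; Wdr61 was called lower in liver, at -0.49 in the authors' deposited table.

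**Figure D2:**
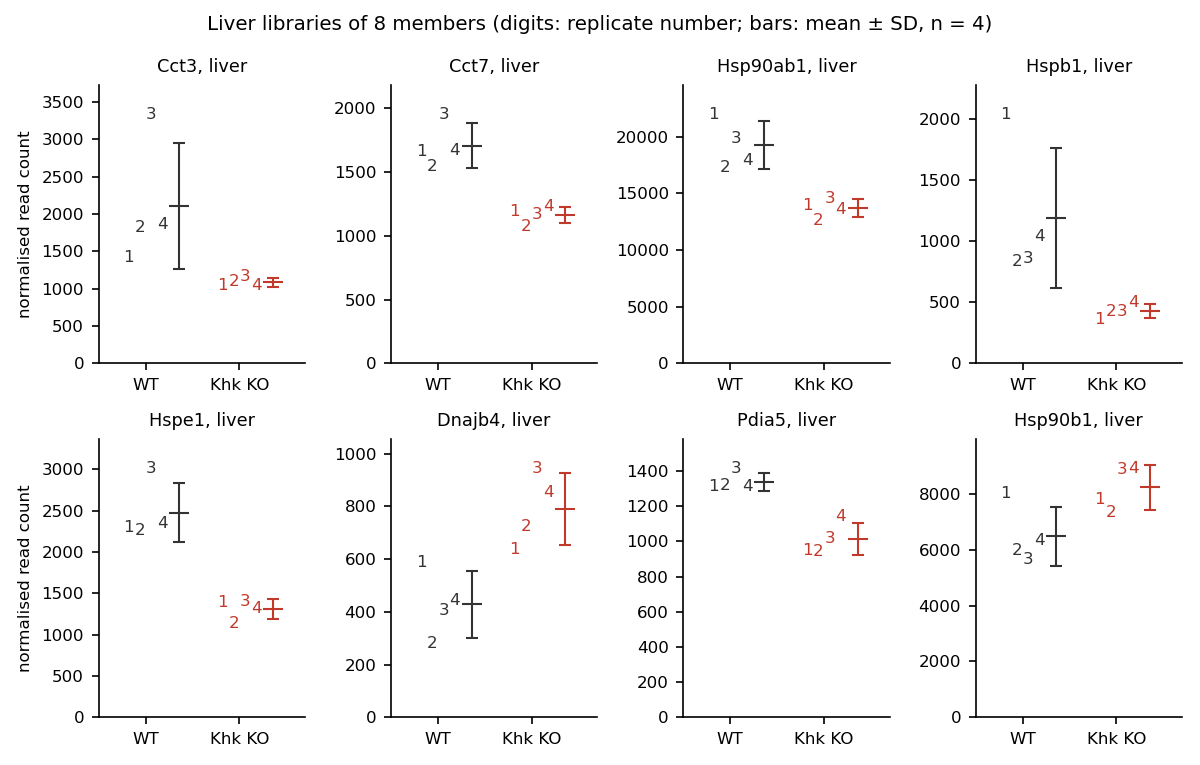
Normalised read count (y axis, from 0) of 8 genes of the set in the 8 liver libraries, each digit being a replicate number, with the mean and SD of 4 libraries beside them. Cct3, Cct7, Hsp90ab1, Hspb1, Hspe1 and Pdia5 lie lower in all 4 Khk KO libraries, Dnajb4 lies higher, and Hsp90b1 overlaps through WT replicate 1.

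In the ER lumen, 3 of 13 annotated genes stood in the liver table and 2 were called, both of them disulfide isomerases and both lower. Pdia5 (ENSMUSG00000022844, chromosome 16, 35397312 to 35490873, minus strand) read 951, 942, 1019 and 1142 in Khk KO and 1312, 1320.0, 1416 and 1311 in WT. Pdia6 (ENSMUSG00000020571, chromosome 12, 17266545 to 17284770, plus strand) read 3133, 3186, 3806 and 3491 in Khk KO and 4863, 4693, 4278 and 3989 in WT. Neither gene overlapped between the genotypes. The log2 fold changes were -0.40 and -0.39, with adjusted p-values of 0.0107 and 0.0175, in the authors' deposited table. In edgeR's quasi-likelihood test they had adjusted p-values of 0.0575 and 0.0663. Hsp90b1 (GRP94), the Hsp90 of the ER, read 7780.0, 7328, 8863 and 8901 in Khk KO and 7989, 5949, 5627 and 6314 in WT. Only WT replicate 1 reached into the Khk KO range, and the log2 value was 0.35, adjusted p 0.0803, in the authors' deposited table. Dnajb14, a J-protein anchored in the ER membrane (ENSMUSG00000074212, chromosome 3, 137867675 to 137916557, plus strand), read 552, 611, 480 and 563 in Khk KO and 460, 266, 181 and 264 in WT. It was higher without overlap, with a refitted log2 fold change of 0.94 ± 0.26 (SE) and an adjusted p of 0.0356.

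Set side by side in liver, 11 of 16 listed cytosolic genes were called, 2 higher and 9 lower, and 2 of 3 listed ER lumen genes, 0 higher and 2 lower. As shares of the annotated genes these are 26.2% and 15.4%, with 23.9% called over all genes adjusted over, which is an unlike base. Of the listed genes they are 68.75% and 66.7%, beside 70.9% of the listed protein-coding genes. The median deposited log2 fold change was -0.55 for the 16 cytosolic genes and -0.39 for the 3 ER lumen genes in the authors' deposited table, beside 0.30 for all 5448 protein-coding genes it held. The table has a gap around 0, with 2745 protein-coding genes higher and 2703 lower, and the sign of their median changed with the processing. In the edgeR refit the median of the protein-coding genes was -0.25, beside -0.52 for the cytosolic and -0.36 for the ER lumen genes. With 3 genes on the ER side the liver table gives no basis for calling the compartments different.

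All 3 mitochondrial genes in the liver table were called lower, which is 33.3% of the 9 annotated, beside 23.9% over all genes adjusted over, an unlike base. Of the protein-coding genes listed for liver 70.9% were called. Hspa9, Dnajc11, Dnajc28 and Dnajc30 stood in no table. Hspe1 (Hsp10), the lid of the mitochondrial chaperonin (ENSMUSG00000073676, chromosome 1, 55088132 to 55091307, plus strand), read 1392, 1131, 1398 and 1315 in Khk KO and 2303, 2256, 3012 and 2342 in WT. This was the lowest adjusted p of the set in the authors' deposited table, 2.71e-07, and the refitted log2 fold change was -0.89 ± 0.14 (SE) with an adjusted p of 0.0151. Hspd1, the chaperonin itself, whose start region Hspe1 shares in opposite orientation with 7.60% of its exon bases in common, stood in no table. Dnaja3, the J-protein of the matrix Hsp70, averaged 1772 ± 147 in Khk KO and 2491 ± 507 in WT (SD, n = 4). Dnajc15, a J-protein of the inner membrane linked to the respiratory chain (ENSMUSG00000022013, chromosome 14, 77820681 to 77875125, minus strand), read 281, 286, 321 and 321 in Khk KO and 356, 447, 653 and 441 in WT, a refitted log2 fold change of -0.62 ± 0.18 (SE) with an adjusted p of 0.0441.

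Outside these compartments, Dnajc13, an endosomal J-protein (ENSMUSG00000032560, chromosome 9, 104151282 to 104262930, minus strand), read 836, 862, 822 and 903 in Khk KO and 738, 407, 355 and 380 in WT. It was higher in every Khk KO library, although WT replicate 1 was near them, and the refitted log2 fold change was 0.89 ± 0.23 (SE) with an adjusted p of 0.0318. Dnajc12, a partner of the aromatic amino acid hydroxylases, read 103, 101, 79.7 and 161 in Khk KO and 149, 214, 484 and 193 in WT. The groups overlapped by Khk KO replicate 4, WT replicate 3 was far above the rest, and the adjusted p was 0.0465 in edgeR's quasi-likelihood test for a log2 fold change of -1.19 ± 0.35 (SE). Without WT replicate 3 these were 0.0815 and -0.72. Dnajc5, the cysteine-string protein of secretory vesicles, was called higher, at 0.48 in the authors' deposited table, and Dnajc9, a histone chaperone, and Dnajc4 were called lower, at -0.83 and -0.57 in the authors' deposited table. Dnajb3 had few reads: 14.4, 28.1, 33.3 and 29.1 normalised counts in Khk KO, and 0, 9.74, 0 and 0 in WT.

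The direction of a gene in these tables went with its length. Over the 4915 protein-coding liver entries that averaged 50 or more normalised counts, Spearman's rho between the deposited log2 fold change and gene length was 0.766, as a description across genes that share libraries. For the 29 genes of the set it was 0.468. In the ileum the values were 0.757 over 4164 genes and 0.647 over 20 genes of the set, in jejunum 0.682 over 1694 and 0.613 over 14, and in duodenum 0.575 over 1115 and 0.673 over 11. In liver, 6 of the 7 genes of the set under 2000 bases were lower, beside 932 of 998 protein-coding genes of that size, and of the 16 with 2000 to 5000 bases 12 were lower, beside 1460 of 1901. At 5000 bases or more 4 genes of the set were higher and 3 lower, where 2238 of 2549 protein-coding genes were higher; the difference was not tested. Those 3 were Cct3, Cct7 and Dnajc15. What the relation with length comes from was not tested.

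**Figure D3:**
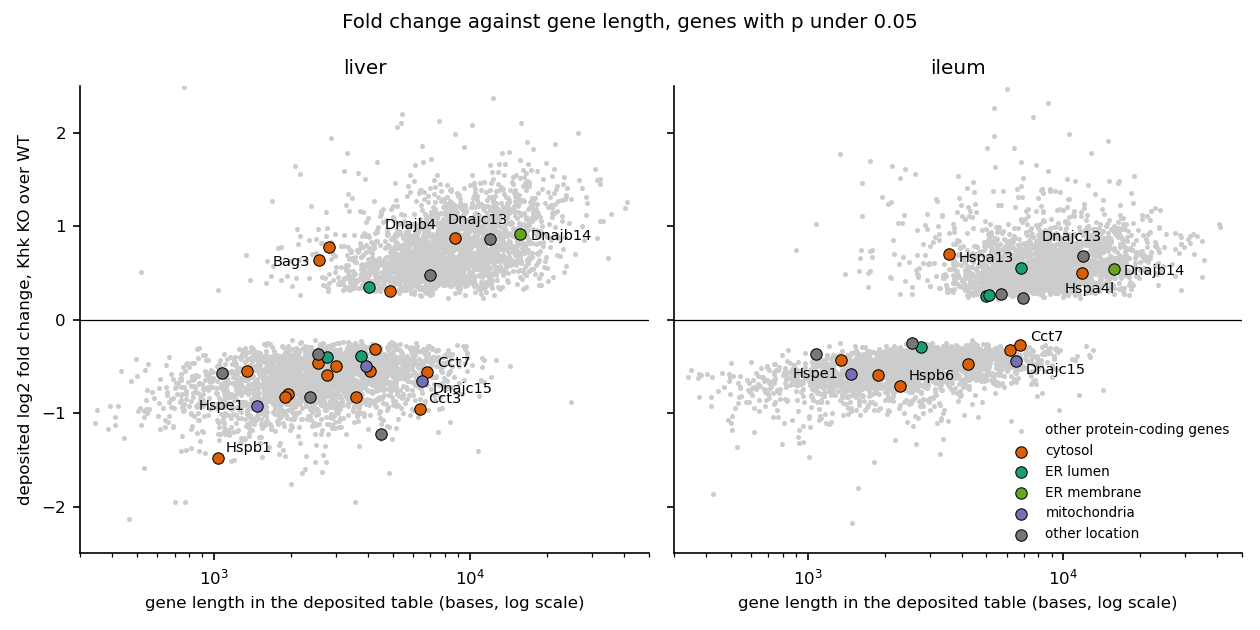
Deposited log2 fold change, Khk KO relative to WT (y axis) against gene length in bases (x axis, log scale) for protein-coding genes that averaged 50 or more normalised counts, 4915 in liver and 4164 in ileum; genes of the set are coloured by place and 6 liver and 5 ileum genes lie beyond the y axis. Both clouds run from short and lower to long and higher, the set lies within them, and the gap around 0 comes from the limit of the tables at an unadjusted p of 0.05.

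Removing each library's trend with length takes away whatever part of a genotype difference runs along length as well. It left 5 called genes of the set in the liver edgeR refit, beside 4.31% of all genes. Cct3 (-1.46 ± 0.29, SE), Cct7 (-1.08 ± 0.16) and Dnajc15 (-1.17 ± 0.24) were lower, and Bag3 (1.09 ± 0.28) and Dnajb3 (4.2 ± 0.90) were higher. The median refitted log2 fold change of the cytosolic genes went from -0.52 to -0.15 and that of the ER lumen genes from -0.36 to 0.04. The outcome depended on which length was used. The tables' length of a gene joins all its exons, and for Cct3 it was 6370 bases where the principal transcript in GENCODE M21 has 1977, for Cct7 6778 against 2441, and for Dnajb4 8765 against 2464. With the transcript length in its place, an alternative chosen after seeing the data, 4 genes of the set were called, beside 3.70% of all genes. Dnajc15 was lower (-1.51 ± 0.29, SE), and Dnajb4 (1.09 ± 0.22), Dnajc7 (0.59 ± 0.12) and Dnajb3 (4.16 ± 0.89) were higher. Cct3 and Cct7 then stood at -0.49 ± 0.16 and -0.31 ± 0.09 (SE), with adjusted p-values of 0.139 and 0.106 in edgeR's quasi-likelihood test. Dnajc15 and Dnajb3 were called under all 3 refits. Hspb1 kept its sign, at -0.87 ± 0.35 under gene length and -0.88 ± 0.34 under transcript length (SE), with adjusted p-values of 0.27 and 0.28 in the same test.

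In the ileum few genes of the set were called, and all of them were higher. By the adjusted p of the authors' deposited table they were 3 of the 21 listed genes (14.3%), beside 48.3% of all genes listed for ileum. That is 3.23% of the 93 annotated genes, beside 15.6% of all genes adjusted over (8.76% higher and 6.86% lower), again an unlike base. For 15 of the 21 the genotypes did not overlap, beside 66.8% of all genes in that table. Of the 4 ER lumen genes listed 1 was called, and of the 8 cytosolic genes none. Hspa13, a Hsp70 relative of the ER (ENSMUSG00000032932, chromosome 16, 75745431 to 75767104, minus strand), read 722, 712, 765 and 727 in Khk KO and 564, 423, 593 and 418 in WT, with no overlap. Its refitted log2 fold change was 0.56 ± 0.12 (SE), with an adjusted p of 0.0185. Dnajb14 read 775, 695, 747 and 682 in Khk KO and 599, 493, 461 and 434 in WT, a refitted log2 fold change of 0.56 ± 0.11 (SE) with an adjusted p of 0.0119. Dnajc13 read 1878, 1953, 2284 and 2030.1 in Khk KO and 1223, 1187, 1343 and 1310.5 in WT, a refitted log2 fold change of 0.69 ± 0.10 (SE) with an adjusted p of 0.00528. Dnajb14 and Dnajc13 were the 2 genes of the set that were called in more than 1 organ, both in liver and ileum and both higher.

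The ER co-chaperones Dnajc3 and Dnajc10, of which the former restrains the kinases that shut down translation and the latter is a disulfide reductase, stood at 0.27 and 0.25 on the log2 scale, with adjusted p-values of 0.164 and 0.146, in the authors' deposited table. Pdia5 stood at -0.30 there, with an adjusted p of 0.159 in the authors' deposited table. The median deposited log2 fold change was 0.26 for the 4 ER lumen genes and -0.38 for the 8 cytosolic genes in the authors' deposited table, beside -0.29 for all 4485 protein-coding genes it held. With the trend on transcript length removed the medians were 0.04 and -0.10, and with the trend on GC content removed -0.16 and -0.03. The edgeR refit called 4 genes of the set, beside 13.9% of all genes. They were the same 3 and Hspa4l, an Hsp110 relative that read 784, 779, 877 and 986 in Khk KO and 850.3, 459, 534 and 576 in WT, with overlap through WT replicate 1, at 0.52 ± 0.16 (SE) with an adjusted p of 0.048. Without WT replicate 1 the number called was 9, beside 2912 over all genes where the full fit had 2221. It was 2 without WT replicate 2, Khk KO replicate 1 or Khk KO replicate 2, beside 969, 656 and 827 over all genes.

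With the length trend removed, the ileum calls were other genes. Under gene length, Bag6 (-0.63 ± 0.11, SE), Cct7 (-0.63 ± 0.09) and Dnajc15 (-0.78 ± 0.15) were called lower, beside 2.97% of all genes, and Hspa13, Dnajb14 and Dnajc13 stood at 0.19, -0.15 and 0.08. Under transcript length Bag6 (-0.55 ± 0.10) and Dnajc15 (-0.997 ± 0.17) were called lower, beside 2.27% of all genes. With the trend on GC content removed instead, 4 genes of the set were called, beside 856 over all genes. Hspa12a (0.51) was higher, and Dnajc15 (-0.90), Dnajc8 (-0.63) and Cct7 (-0.38) were lower. Hspa13, Dnajb14 and Dnajc13 then stood at 0.02, 0.02 and 0.31 and were not called. Bag6, which guards membrane proteins on their way to the ER, read 3007, 2967, 3220 and 2842 in Khk KO and 3256, 4282, 3672 and 3903 in WT. Dnajc15 read 345, 412, 380.1 and 348 in Khk KO and 635, 538, 429 and 421 in WT. Both genes lay lower in all Khk KO libraries, with adjusted p-values of 0.0656 and 0.0776 in the authors' deposited table.

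In duodenum and jejunum no gene of the set was called by the authors' deposited tables, beside 0.224% and 0.759% of all genes and 2.23% and 3.11% of the genes listed. All 11 and 15 listed genes had an unadjusted p under 0.05 there. The edgeR refit called 0 of the set in both, beside 0.0064% and 0.0101% of all genes. At an unadjusted p under 0.05 it had 6 of 11 and 13 of 14 genes of the set, beside 698 of 1406 and 1675 of 2043 genes tested. DESeq2 called 0 in duodenum, beside 0.237% of all genes, and 1 in jejunum, beside 3.51%. That gene was Dnajc13, which read 1745, 1858, 1847 and 2369 in Khk KO and 1137, 1542, 1463 and 1290 in WT. Among them Hsph1 and Hspa1b were uneven within the Khk KO group. Hsph1, an Hsp110 protein that HSF1 controls (ENSMUSG00000029657, chromosome 5, 149614287 to 149636376, minus strand), read 327, 350, 839 and 1282 normalised counts in Khk KO replicates 1 to 4 in duodenum and 339, 298, 333 and 472 in WT. In jejunum it read 337, 522, 920 and 1377 in Khk KO and 394, 335, 412 and 443 in WT. In both organs Khk KO replicates 3 and 4 lay above every WT library and Khk KO replicate 1 lay within the WT range. The refitted log2 fold changes were 1.08 ± 0.43 and 0.98 ± 0.36 (SE), where the authors' deposited tables had 0.95 and 0.99. The exact two-sided permutation test gave p = 0.229 in duodenum and 0.143 in jejunum. Without Khk KO replicate 4 the refitted log2 fold changes were 0.62 and 0.60.

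Hspa1b in jejunum read 59.1, 66.4, 149 and 305 in Khk KO and 77.0, 61.6, 76.9 and 78.0 in WT, so that Khk KO replicate 1 lay just below the WT range, replicate 2 within it and replicates 3 and 4 above it. Its refitted log2 fold change was 0.96 ± 0.47 (SE), and 0.34 without Khk KO replicate 4. Hspa8, the constitutive cytosolic Hsp70 and at 170 ± 13.8 FPKM in WT (SD, n = 4) the most abundant gene of the set in the duodenum table, read 14783, 17235, 19983 and 23983 in Khk KO and 14262, 15114, 14101 and 16758 in WT. Its refitted log2 fold change in duodenum was 0.47 ± 0.17 (SE) and 0.34 without Khk KO replicate 4. With all libraries it was 0.335 in the authors' deposited table. The refit's scaling lay 0.153 above the authors' in the median over all duodenum genes tested. Dnajb1 and Bag3, further HSF1 targets, were more even within Khk KO and averaged 1090.4 ± 114 and 1062 ± 71.9 in Khk KO and 908 ± 84.2 and 891 ± 49.6 in WT in duodenum (SD, n = 4). In liver, too, Hspa1b was highest in Khk KO replicate 4, at 347. Whether the same number marks the same mouse in different organs is not in the labels.

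Of the 6 cytosolic co-chaperone and HSF1 pathway genes listed for jejunum, 2 had a higher mean in Khk KO and 4 a lower one, and of 9 unfolded protein response and ER folding genes 6 were higher and 3 lower. A higher one was taken from each, after its values were seen. Ahsa2, related to an activator of Hsp90, read 146, 213, 248 and 336 in Khk KO and 122, 185, 157 and 136 in WT, and Herpud1, an ER stress gene, 4000, 4342, 5961 and 6081 against 3262, 3587, 3935 and 3970; neither was called. Egr1, an immediate early gene, was high in Khk KO replicates 1 and 3, at 552, 146, 1132 and 111 in Khk KO and 111, 132, 140.4 and 124 in WT. Of 15 immediate early genes it was the only one in the jejunum table. What the high Hsph1 and Hspa1b values of Khk KO replicates 3 and 4 come from was not tested.

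**Figure D4:**
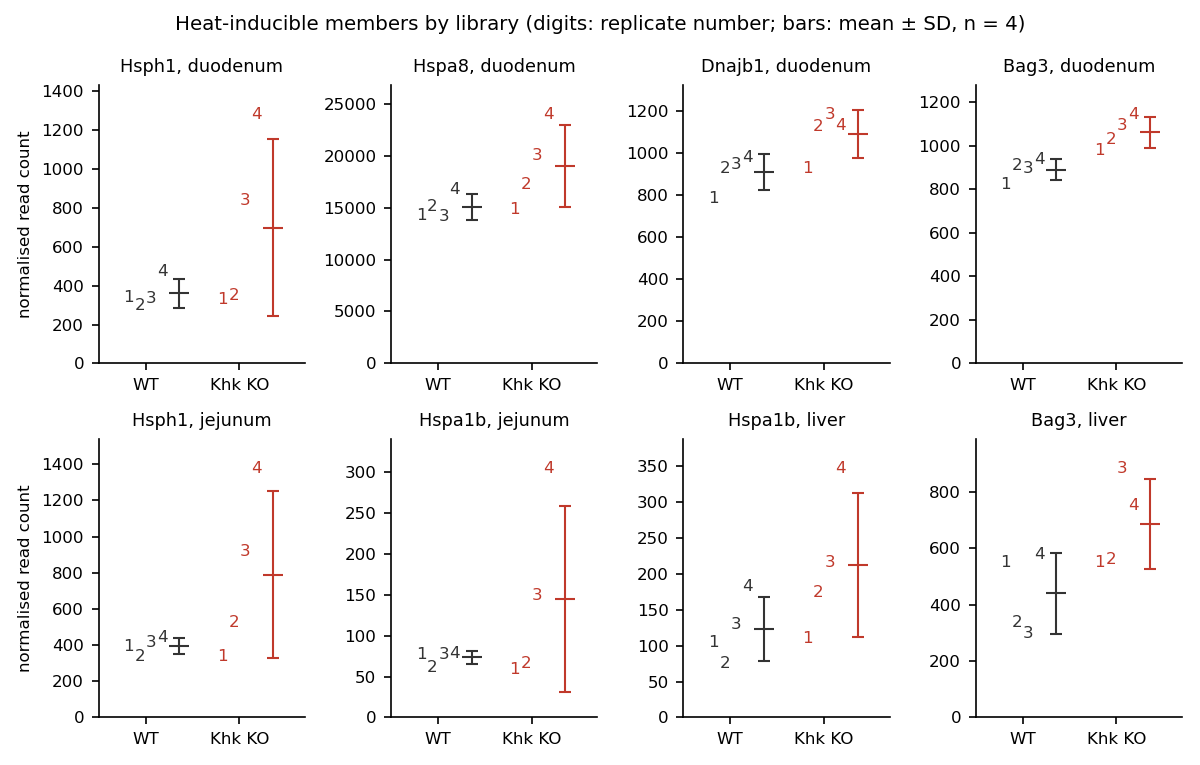
Normalised read count (y axis, from 0) of heat-inducible genes of the set, and of the constitutive Hspa8, by library, each digit being a replicate number, with the mean and SD of 4 libraries beside them. For Hsph1 in duodenum and jejunum and Hspa1b in jejunum Khk KO replicates 3 and 4 lie above all WT libraries, while replicate 1 lies among them for Hsph1 and just below them for Hspa1b.

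Genes of small heat-shock proteins were among the lower entries in jejunum. Hspb1, Hspb6 and Hspb8 averaged 208 ± 40.2, 242 ± 47.1 and 119 ± 14.2 in Khk KO against 359 ± 110, 363 ± 94.3 and 227 ± 113 in WT (SD, n = 4), with adjusted p-values of 0.112, 0.198 and 0.134 in the authors' deposited table. WT replicate 1 was the highest library for each, at 514, 496 and 387. Of 10 smooth muscle markers 5 stood in the jejunum table (Myl9, Acta2, Des, Actg2 and Cnn1), all with a lower mean in Khk KO and none called. Their summed level ran from 9434 to 13961 in Khk KO and from 11899 to 27060 in WT, with WT replicate 1 again highest. In ileum Hspb6 read 2699 in WT replicate 1 and 747 to 905 in the other 7 libraries, and Myl9, the 1 marker listed, read 20969 in WT replicate 1 and 6984 to 11090 in the others. This place of WT replicate 1 was not particular to muscle. In jejunum it was also the highest WT library for the summed hepatocyte (408799), enterocyte (291751) and goblet cell (77083) markers. It was not for the Paneth cell (19085) and circadian clock (4975) markers. In ileum it was also highest in WT for the hepatocyte, enterocyte, Paneth and goblet cell sums, but not for the B and plasma cell or clock sums. The part of muscle content in the small heat-shock values was not tested.

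Hspe1 and Hspbp1 were the 2 genes in all 4 tables, with a lower mean in Khk KO each time, and called in liver only. With the trend on gene length removed, Hspe1 stood at -0.27 in liver, where it was no longer called. It stood at 0.01, 0.13 and 0.01 in duodenum, jejunum and ileum, and Hspbp1 at -0.22, 0.02 and -0.07 there. In duodenum Hspe1 read 1196, 1349, 1498 and 1527 in Khk KO and 3096, 1520, 1628 and 1479 in WT, so that the groups overlapped and WT replicate 1 stood far above them. The ileum libraries read 1038, 1089, 928 and 1148 in Khk KO and 2654, 1336, 1049 and 1257 in WT. In jejunum the groups did not overlap, at 944 to 1085 in Khk KO and 1201 to 1575 in WT. Hspbp1 read 372 to 427 in Khk KO in duodenum and 1109, 449, 473 and 480 in WT, and in ileum 327 to 391 against 809, 504, 401 and 439. WT replicate 1 was the highest WT library for 5 of 5 genes of the set with a lower mean in duodenum, 9 of 11 in jejunum and 8 of 11 in ileum. In liver that place fell to WT replicate 3, for 16 of 21.

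**Figure D5:**
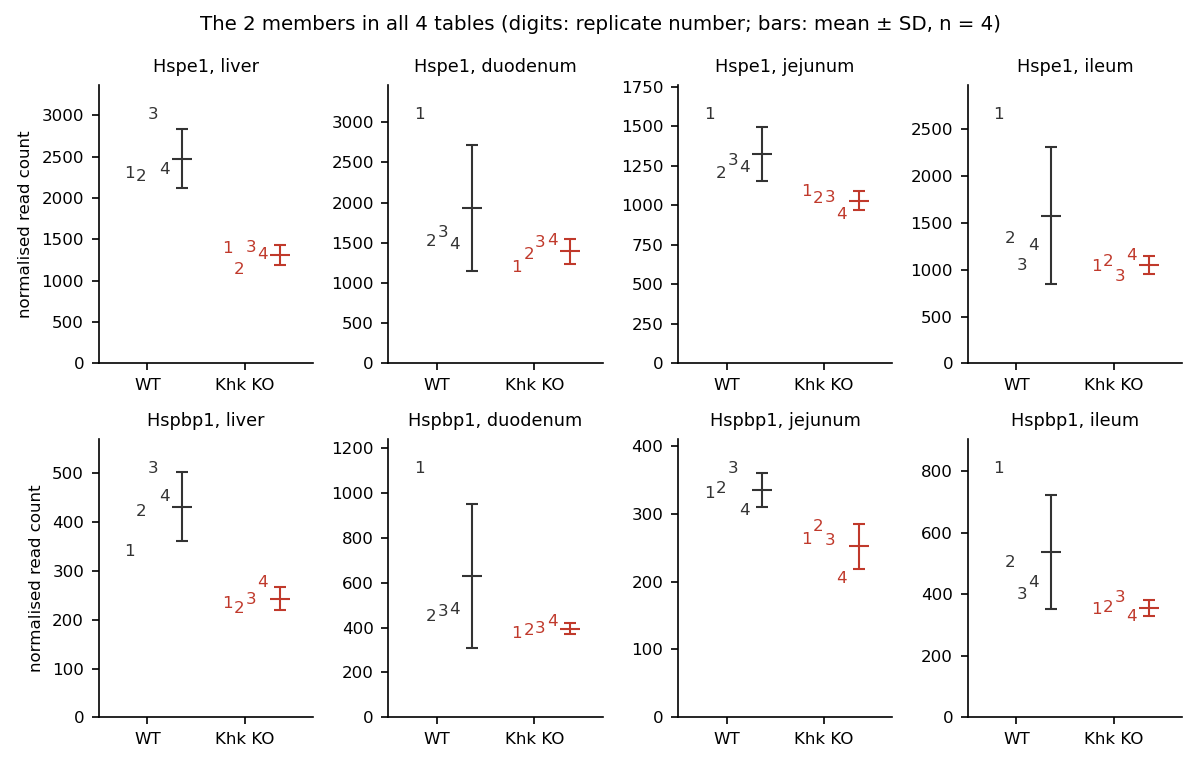
Normalised read count (y axis, from 0) of Hspe1 (top) and Hspbp1 (bottom) in liver, duodenum, jejunum and ileum, each digit being a replicate number, with the mean and SD of 4 libraries beside them; organs were scaled separately. In liver and jejunum the genotypes do not overlap for either gene, and in duodenum and ileum they overlap for Hspe1 but not for Hspbp1. In duodenum and ileum WT replicate 1 lies above the other 7 libraries for both genes.

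Across organs, 22 genes of the set stood in 2 or more tables, and 21 of them (95.5%) pointed the same way in each: 14 lower and 7 higher. Over all 3582 protein-coding genes in 2 or more tables the share was 97.0%. The exception was Dnaja4, a heat-inducible J-protein, which read 25.4 to 52.4 in Khk KO and 55.0 to 86.2 in WT in liver, and 61.4 to 94.3 against 37.7 to 56.0 in ileum. It was called in neither. The 14 include Bag1, Dnajc8, Hspb1, Hspb6, Hspb8 and Pdia5, and the 7 include Bag3, Dnajc5, Hspa12a, Hspa1b and Hsph1. With the trend on gene length removed, Bag1, Dnajc8 and Pdia5 reversed in every organ that listed them, as did Dnajb14 and Dnajc5, and Hspe1 in 3 of its 4. Genes of the set not yet described were called in no organ. In jejunum Dnajc19, part of the mitochondrial import motor, averaged 482 ± 41.0 in Khk KO and 779 ± 372 in WT, Hspa2, a testis-enriched Hsp70, 130 ± 28.5 and 202 ± 47.8, and Pdia3, a disulfide isomerase that acts on glycoproteins, 7433 ± 409 and 8989 ± 1004 (SD, n = 4). In duodenum Dnajb13 averaged 76.8 ± 12.3 in Khk KO and 46.3 ± 11.6 in WT (SD, n = 4). Dnajb2 in liver averaged 637 ± 43.9 and 792 ± 96.1, and Dnajc17 in jejunum 112 ± 15.9 and 187 ± 102, in Khk KO and WT. A pair of entries had few reads: Dnajb7 in ileum, at 6.74 to 13.5 in Khk KO and 0 to 5.18 in WT, and Cct8l1 in jejunum, at 1.75 to 4.75 in Khk KO and 0 in all 4 WT libraries.

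Genes outside the naming rule but of the same pathways, were taken from 3 lists. In liver, of 28 cytosolic co-chaperone and HSF1 pathway genes, 15 were listed and all were called, 3 higher and 12 lower, where 68.5% of all listed genes were called. The 3 higher genes had a median length of 9606 bases and the 12 lower ones 1937. Fkbp4 and Stip1, which load clients on Hsp90, stood at -0.65 and -0.72 in the authors' deposited table, and its ATPase activator Ahsa1 -0.76. The prefoldin subunits Pfdn5 and Pfdn1 stood at -0.85 and -0.90 in the authors' deposited table. The 3 higher genes were Hsf2, Cdc37l1 and Tsc22d3, of which the last is known as a target of the glucocorticoid receptor. Of 14 mitochondrial folding and protease genes 8 stood in the liver table and 7 were called, all lower, among them Grpel1, the exchange factor of the matrix Hsp70, at -0.85 in the authors' deposited table and the protease subunit Clpp at -0.78.

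The list of 38 unfolded protein response and ER folding genes was split in liver: 23 stood in the table, 10 were called higher and 11 lower. Higher were Edem3, which marks glycoproteins for degradation, and the stress sensor Ern1 (IRE1), at 1.07 and 0.97 in the authors' deposited table. Lower were Sdf2, Sdf2l1 and Derl3, at -0.98, -0.82 and -1.75 in the authors' deposited table, and the disulfide isomerase relative Erp29 at -0.67. The 10 higher genes had a median length of 6942 bases (4772 to 9231) and the 11 lower ones 2735 (1108 to 9060). In ileum 12 of 28, 16 of 38 and 4 of 14 stood in the table, of which 1 higher and 6 lower, 5 higher and 2 lower, and 1 higher and 1 lower were called, in the order of the lists above. Of all listed genes 68.5% were called in liver and 48.3% in ileum. Edem3, Ern1 and Atf6 were again higher there, at 0.77, 0.56 and 0.44 in the authors' deposited table. In jejunum 6, 9 and 1 and in duodenum 2, 2 and 2 stood in the tables, and none was called.

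Other cell and state markers moved in the same libraries. In liver 7 of 8 listed hepatocyte genes were called, 1 higher and 6 lower, with a median of -0.40 on the log2 scale by the authors' deposited table and a summed level of 405010 to 462720 in Khk KO against 444982 to 646732 in WT. The 6 listed B and plasma cell genes all had a lower mean in Khk KO liver, and 2 were called. Of all genes listed for liver 68.5% were called. In ileum, 3 of 5 listed B and plasma cell genes, 4 of 5 Paneth cell genes and 3 of 4 goblet cell genes were called lower. In either direction 48.3% of all genes listed for ileum were called. Plasma, Paneth and goblet cells are secretory cells with a large ER. The summed levels in ileum were 106686 to 191915 in Khk KO and 193613 to 253114 in WT for the first list, 152111 to 190115 against 228592 to 294451 for the second and 82096 to 117128 against 125101 to 152385 for the third. In duodenum the 2 listed B and plasma cell genes had a higher mean in Khk KO, and neither was called. Circadian clock genes had a higher mean in Khk KO in every organ table, with 6 of 6 listed called in liver, 1 of 5 in duodenum, 0 of 5 in jejunum and 2 of 5 in ileum. The shares of all listed genes called were 68.5%, 2.23%, 3.11% and 48.3% in that order. The part of these markers in the chaperone values was not tested.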

How the data were processed

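Poly(A) RNA from 4 organs (liver and 3 stretches of small intestine) was sequenced, with 4 libraries per genotype and organ. Per the labels' protocols the first strand was primed with random hexamers, and the protocol allows for stranded as well as unstranded libraries without saying which was made. HISAT2 2.0.5 and the builds GRCm38 and mm10 are named, per the submitters' processing notes; the counting tool and the test are not given in the sources used here. Per the file headers, the authors deposited for each organ read counts, normalised counts (a signal: the count divided by 1 size factor per library), FPKM, a log2 fold change, a p-value and an adjusted p-value. The ranks of the deposited p-values show an adjustment over 18225 genes (liver), 16034 (ileum), 15615 (duodenum) and 9881 (jejunum); an adjusted p of 1 was read as not adjusted.

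Numbers of called genes use the authors' deposited adjusted p under 0.05. The counts were fitted again for each organ with edgeR 4.0.16 (R 4.3.3): TMM scaling, filterByExpr, quasi-likelihood F test between the genotypes, adjusted over the same numbers of genes, since the tables lack genes with a larger p. Dnajb7 and Cct8l1 fell to the filter. The refit sees only selected genes, and its counts without a library are given as values. The SE is the log2 fold change divided by the square root of F. Length trends were lowess curves (span 0.5) per library over genes averaging 10 or more normalised counts, removed as offsets together with the authors' size factors. Alternatives were the authors' size factors, DESeq2 1.42.0, no filter, trends on gene length, transcript length and GC content, a replicate block, and leaving out each library. The scripts were tested on simulated data. TMM lay 0.153 above the authors' size factors in the median log2 fold change of all duodenum genes tested, and within 0.0255 in the other organs.

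The genes of the set, the place lists, the 3 pathway lists and the marker lists were chosen with earlier results of these data known. Library values were to be given for called Hsp70, Hsp110, Hsp90, ER and mitochondrial heat-shock genes, for the 3 largest rises and falls per organ among called genes averaging 100 or more, and for genes called in 2 or more organs. Cct7, Dnajc15, Bag3, Bag6, Hspa4l, Hsp90b1, Dnajb3, Dnajc7, Hspa14, Hspa1b, Dnajc3, Dnajc10, Pdia5 in ileum, Cct5, Hspbp1, Dnaja4, Dnajb2 and all genes named in duodenum and jejunum were added after their values were seen, as were Hsf2, Cdc37l1, Tsc22d3, Cct6a, Wdr61, Ahsa2, Herpud1, Egr1 and the smooth muscle genes.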

Additional observations from a re-analysis of the deposited data

Results flagged for a closer look

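In each group of 4 libraries the highest and the lowest value was set against the other 3 with Dixon's test. Of 148 such groups chance alone gives about 1 in 20, or 7.4, and 16 stood out. In duodenum WT replicate 1 was far above the other WT libraries for Hspbp1 (1109, median of the others 473), Hspe1 (3096 against 1520) and Dnajc17 (239 against 171). The same number stood out in ileum for Bag1 (5344 against 3040) and Hspb6 (2699 against 797), and in jejunum for Bag1 (4069 against 2654) and Pdia3 (10484 against 8534). Also in ileum, Pdia5 was highest in Khk KO replicate 4 (557 against 462), Dnajc4 in WT replicate 2 (408 against 287) and Dnajc5 in WT replicate 3 (2345 against 2140). Hspa1b in jejunum was lowest in WT replicate 2 (61.6 against 77.0). In liver, WT replicate 3 was highest for Cct5 (3241 against 2325), Pdia5 (1416 against 1312) and Hspe1 (3012 against 2303), and WT replicate 1 for Hspb1 (2035 against 854) and Dnajc13 (738 against 380). All values are normalised counts.

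Dnaja4 pointed in opposite directions in 2 organs, with every library of a genotype on its side: the log2 fold change was 0.70 in ileum and -0.83 in liver in the authors' deposited table. The difference between the organs was not tested, since the organs were scaled separately, and Dnaja4 was called in neither.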

How the results depend on the processing

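The tables hold only genes past an unadjusted p, which limits every refit, and the depth of genes left out is not known. Values below are log2 fold changes of the edgeR refit; "gene length", "transcript length" and "block with length" name the trend removed, the last with the replicate number as a block, and the cause of each move was not tested. Trends on transcript length and GC content were chosen after seeing the data.

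In liver the deposited calls went from 23 to 14 at an adjusted p under 0.01. The refit's 15 became 23 with DESeq2 (4411 over all genes, where edgeR called 2675), 5 with gene length, 4 with transcript length, 5 with block with length, and 0 to 26 with single libraries left out. With GC content it was 16 (2238 over all genes). In ileum its 4 became 12 with DESeq2 (3520 over all genes, where edgeR called 2221), 2 with transcript length and 2 to 9 with single libraries left out. In jejunum DESeq2 called 1 where edgeR called 0. The duodenum count was 0 throughout.

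With gene length, transcript length and block with length in that order, the cytosolic median became -0.154, -0.074 and -0.152 in liver (-0.516 before), -0.0613, -0.0572 and -0.0545 in jejunum (-0.489 before) and -0.140, -0.0962 and -0.0646 in ileum (-0.369 before; -0.0328 with GC content). In duodenum it was 0.204 with transcript length (0.388 before). The ER median reversed in liver, to 0.0447, 0.0739 and 0.0463 (-0.363 before), where it equals the value of Pdia5. In jejunum it is the value of Pdia3 alone and reversed to 0.0301 with gene length and 0.0277 with block with length. In ileum it was 0.158, 0.0358 and 0.157 (0.267 before) and reversed to -0.155 with GC content.

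Single genes reversed as follows, in the same order. In liver these were Bag1 (0.121, 0.114, 0.127), Dnajb14 (-0.0292, -0.0815, -0.0306), Dnajc4 (0.165, 0.173, 0.153), Dnajc5 (-0.0176, -0.297, -0.0151), Cct2 (0.0449 with gene length, 0.0475 with block with length), Dnajc13 (-0.0296 with transcript length) and Hsp90b1 (-0.118 with GC content). Hspe1 reversed in duodenum (0.0131, 0.0571, 0.0151), in jejunum (0.127, 0.123, 0.135) and in ileum (0.0120, 0.0703, 0.0331). Bag1 reversed in jejunum (0.108, 0.0936, 0.108) and ileum (0.149, 0.137, 0.152), and Hspbp1 in jejunum (0.0249 with gene length, 0.0435 with block with length). In ileum so did Dnajb14 (-0.153, -0.160, -0.133), Pdia5 (0.0680, 0.0826, 0.0786), Hspa4l (-0.105, -0.199, -0.0689; -0.0258 with GC content), Dnajc10 (-0.231 with GC content, -0.0109 with transcript length) and Dnajc3 (-0.237 with GC content, -0.176 with transcript length). Further reversals were those of Dnajc8 in liver (0.136, 0.237, 0.128), jejunum (0.0755, 0.138, 0.0760) and ileum (0.157, 0.219, 0.160), Dnajc4 (0.162, 0.161, 0.205; 0.0714 with GC content) and Dnajc5 (-0.143, -0.331, -0.142) in ileum, Cct5 in duodenum (0.0150, 0.0385, 0.0198), Dnajb2 in liver (0.136) and Hspa12a in ileum (-0.232) with transcript length, and Bag6 in ileum (0.127 with GC content). With gene length, 7 of 30 fitted entries reversed in liver, 2 of 11 in duodenum, 5 of 14 in jejunum and 8 of 20 in ileum.

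No direction of any fitted entry reversed with the authors' size factors, DESeq2, no filter on low counts or the replicate block. Same-numbered libraries of the 2 genotypes did not deviate together in every pair (correlations from -0.269 to 0.312), so the number was not taken as a pairing. The replicate block left 50 of 54 values of single genes on the same side of the threshold and moved the number of calls from 15 to 12 in liver and from 4 to 3 in ileum.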
